A study of Mus musculus with 12 samples.

Results

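Binding of the acetyltransferase MOF was described at 9 genes through which adipose tissue takes up and binds fatty acids: Lpl, Gpihbp1, Angptl4, Lmf1, Cd36, Slc27a1, Acsl1, Fabp4 and Fabp5. The genes were given as a list, located in the GENCODE M21 annotation of the mouse, and are 9 of the 21938 protein-coding genes on the assembled chromosomes. A MOF peak was counted for a gene when it overlapped the gene body or the region within 3 kb of any annotated start site by at least 1 bp. By this window 7 of the 9 genes had a peak in Mof+/+ tissue, with 15 peaks in all, against 44.5% of protein-coding genes. In Mof+/- tissue 0 of the 9 had a peak, against 1.89% of protein-coding genes.

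MOF, also named KAT8, acetylates histone H4 and is found at many active promoters. Its binding was measured by chromatin immunoprecipitation with sequencing (ChIP-seq) in visceral white adipose tissue of C57BL/6 mice, 8 weeks old and fed a standard diet. The mice had both copies of Mof (Mof+/+) or were heterozygous (Mof+/-), and 2 libraries in each of 6 groups (12 in all) held the MOF ChIP, the ChIP of histone H3 and the input DNA of both genotypes. The data described here are 2 peak lists of the MOF ChIP, 1 for each genotype, with 19773 peaks in Mof+/+ and 731 in Mof+/-. Neither list holds values for single libraries, so no spread between animals can be given and no difference between the genotypes was tested. The design text counts 3 Mof+/- animals where the labels give 2 libraries, and the reporting summary of the study has the number of the labels. Whether the reads of both libraries were pooled before peak calling is not stated. The methods describe a later merging of peaks within 1000 bp of each other, but the lists still hold peaks closer than that, such as the first 2 of Acsl1. The Mof+/+ list carries no genotype in its name and was taken as the counterpart of the Mof+/- list.

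Circulating triglyceride reaches the adipocyte in steps. Lipoprotein lipase releases fatty acids from lipoproteins at the capillary wall, membrane proteins carry the fatty acids into the cell, acyl-CoA synthetases activate them, and small binding proteins hold them in the cytosol. The 9 genes cover each of these steps: Lpl encodes the lipase itself, Lmf1 an endoplasmic reticulum protein needed for its maturation, Gpihbp1 the protein that anchors it on capillary endothelium, and Angptl4 a secreted inhibitor. Cd36 encodes a fatty acid receptor of the plasma membrane, Slc27a1 the fatty acid transport protein FATP1, Acsl1 a long-chain acyl-CoA synthetase, Fabp4 the adipocyte fatty acid binding protein and Fabp5 a relative of it known from epidermis. Endothelial cells are the usual source of Gpihbp1, whereas most of the other genes are strongly expressed by adipocytes.

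The tissue holds several cell types, and the lists were checked against 4 sets of 8 marker genes. Of the adipocyte markers 6 had a Mof+/+ peak, and Lep and Retn had none. Of the endothelial markers 2 had a peak, of the macrophage markers 1, and of the B cell markers all 8, beside 44.5% of all protein-coding genes. The B cell set includes Ebf1, which is also an adipogenic factor. The strongest peaks of Pecam1, Cd68, Cd79a and Pnpla2 covered a start site of another gene: Milr1, Mir1934, Arhgef1 and Cracr2b. Among these sets the sole gene with a Mof+/- peak was Pax5, a B cell transcription factor. In bulk tissue, fewer cells of a type and less binding per cell cannot be told apart, and the part of B cells in the peaks of the 9 genes was not tested.

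The share of the 9 genes with a Mof+/+ peak was 77.8% (95% Wilson interval 45.3 to 93.7%), and the same window found a Mof+/+ peak at 44.5% of all protein-coding genes. The background lay below that interval in this window, by less than 1 percentage point, and also in the 5 other settings that kept 7 of 9 members with a background of 41.4 to 44.5%. With the window widened to 10 kb the members stayed at 7 of 9 and the background, 48.3%, lay inside the interval. Stricter limits on the peaks lowered both counts. Limiting q-values to 0.01 left 6 of 9 members against 40.6% of protein-coding genes, and limiting them to 0.001 left 4 of 9 against 34.2%. No interval was computed for these counts. The weakest Mof+/- p-value, applied to both lists, left 5 of 9 members. The background of 38.9% then lay inside the interval of 5 of 9, 26.7 to 81.1%. The difference between the members and the background was not tested, and the genes were chosen with earlier results known. Slc27a1, Acsl1, Lpl, Angptl4 and Lmf1 had a peak within 1 kb of a start site, 5 of 9 genes (55.6%, 26.7 to 81.1%), against 41.0% of protein-coding genes. Within 2 kb of a start site the count was 7, with Cd36 and Fabp4 added, and no share of all genes was computed for that window. Longer genes offer a larger window: a peak was present at 32.5% of protein-coding genes under 10 kb, at 50.8% of those from 10 to 50 kb and at 51.9% of those of 50 kb and over. Of the 4 members under 10 kb, Fabp4 and Angptl4 had a peak and Fabp5 and Gpihbp1 had none. All 5 longer members (Lpl, Slc27a1, Acsl1, Lmf1 and Cd36) had a peak.

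**Figure D1:**
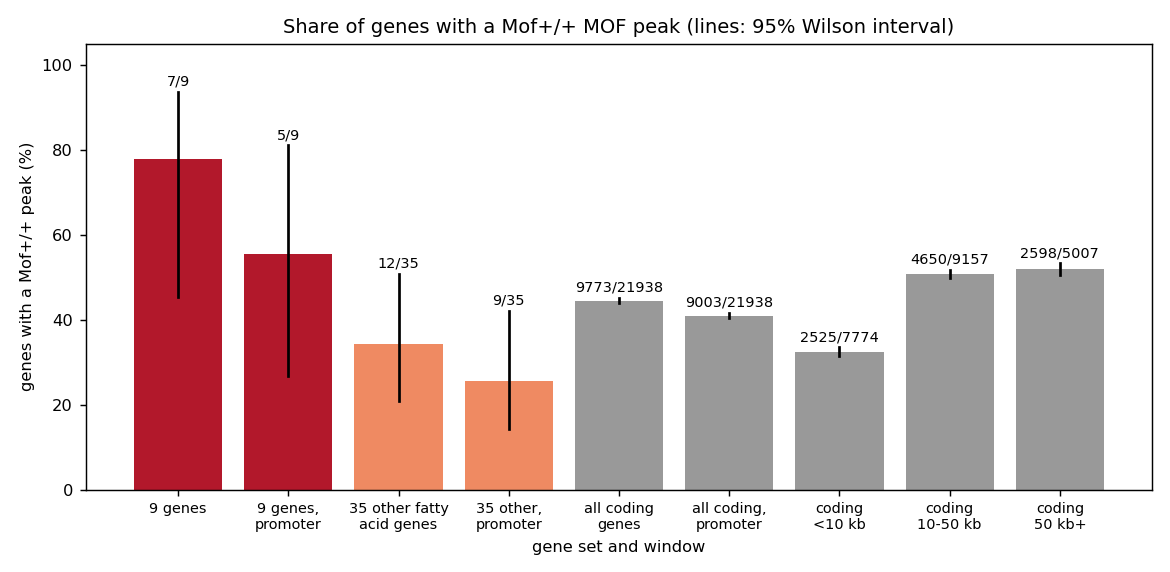
The bars give the percentage of genes with a Mof+/+ MOF peak for the 9 genes, 35 other fatty acid handling genes and all protein-coding genes, in the gene body with 3 kb around start sites or in the promoter (1 kb), and by gene length, with lines for the 95% Wilson interval and counts above. The bar of the 9 genes stands at 77.8% and that of all protein-coding genes at 44.5%, and the line of the 9 genes runs from 45.3 to 93.7%.

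The sequences before the start sites show how unlike the promoters of these genes are. RefSeq (GRCm38.p6) promoters were matched for 4 of the 9 genes, Cd36, Slc27a1, Acsl1 and Lmf1, with 7 start sites. The first start site, or the sole one, is shown for each gene, up to 250 bases before it, on the strand of the gene and without bases that an annotated UTR covers. Capitals mark the GC box GGGCGG, the CCAAT box and the element AGGTCA of nuclear receptors, each searched on both strands.
Acsl1 upstream, GRCm38 chr8:46470787-46471036, plus strand: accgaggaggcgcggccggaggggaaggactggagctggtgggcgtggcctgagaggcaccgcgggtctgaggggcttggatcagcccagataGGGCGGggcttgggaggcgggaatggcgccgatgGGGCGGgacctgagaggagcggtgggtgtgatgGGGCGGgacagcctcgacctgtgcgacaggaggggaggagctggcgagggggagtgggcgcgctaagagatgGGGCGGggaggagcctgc
Lmf1 upstream, GRCm38 chr17:25578924-25579084, plus strand: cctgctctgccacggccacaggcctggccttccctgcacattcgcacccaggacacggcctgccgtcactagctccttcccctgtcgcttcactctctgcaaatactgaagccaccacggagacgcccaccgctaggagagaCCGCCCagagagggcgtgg
Slc27a1 upstream, GRCm38 chr8:71568621-71568870, plus strand: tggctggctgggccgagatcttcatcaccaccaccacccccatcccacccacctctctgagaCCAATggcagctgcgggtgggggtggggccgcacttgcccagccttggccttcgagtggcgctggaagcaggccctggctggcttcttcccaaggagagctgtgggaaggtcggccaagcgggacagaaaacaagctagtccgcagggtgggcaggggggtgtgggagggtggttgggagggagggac
Cd36 upstream, GRCm38 chr5:17835897-17836146, minus strand: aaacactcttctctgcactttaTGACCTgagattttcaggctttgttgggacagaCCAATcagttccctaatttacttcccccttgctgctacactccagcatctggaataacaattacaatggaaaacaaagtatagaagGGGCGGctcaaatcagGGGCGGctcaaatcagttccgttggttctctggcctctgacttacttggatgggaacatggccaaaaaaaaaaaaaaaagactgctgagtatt

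The stretch before Acsl1 held 4 GC boxes, and the promoter of 300 bases (250 before and 50 after the start) held 30 CpG sites, above the upper quartile of 25 over 20150 protein-coding promoters. The Lmf1 promoter held 23 CpG sites and the stretch shown held 1 GC box. At Slc27a1 the first promoter held 10 CpG sites, between the lower quartile of 4 and the median of 14, and the stretch shown held 1 CCAAT box and no GC box, while the promoters of its start sites further downstream held 16 and 13 CpG sites. The Cd36 promoter held 3 CpG sites, below that quartile, and its stretch held 2 GC boxes, 1 CCAAT box and 1 AGGTCA element. A Mof+/+ peak overlapped the first promoter of Acsl1, all 3 promoters of Slc27a1 and the Lmf1 promoter, where the peak began 38 bp downstream of the RefSeq start. The nearest peak lay 2077 bp from the Cd36 start. The second Acsl1 promoter held 4 CpG sites, and the nearest peak lay 12845 bp from its start.

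Of all protein-coding promoters, 47.8% held a GC box, 37.8% a CCAAT box, 14.4% an AGGTCA element and 12.1% a TATAAA box. The direct repeat of AGGTCA with 1 base between, the element of PPAR and RXR receptors, was in 0.0496% of promoters and in none of the 7 of these genes, and TTGCGCAA, a C/EBP element, was in 0.233% and likewise in none of them. A match of letters is a description and not a binding site.

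Values at a peak are those of its summit, the position of highest signal. Fold enrichment is the ratio of ChIP fragments to the caller's background from the input control, each with 1 added. The number of fragments was solved from it and from the p-value of the same peak. Intervals on fragments and on fold enrichment are 95% Poisson intervals and cover counting error only. Over the 15 peaks fold enrichment ran from 2.65 to 4.87 with a median of 3.19, and fragments from 11 to 23 with a median of 15. The Mof+/+ list as a whole had a median fold enrichment of 3.40 (quartiles 2.90 and 4.17) and a median of 16 fragments, and 7 of the 15 peaks lay above its median fold enrichment. The counting interval of each of the 15 peaks reached into that of the strongest, so an order of the genes by fold enrichment is not resolved at this depth.

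**Figure D2:**
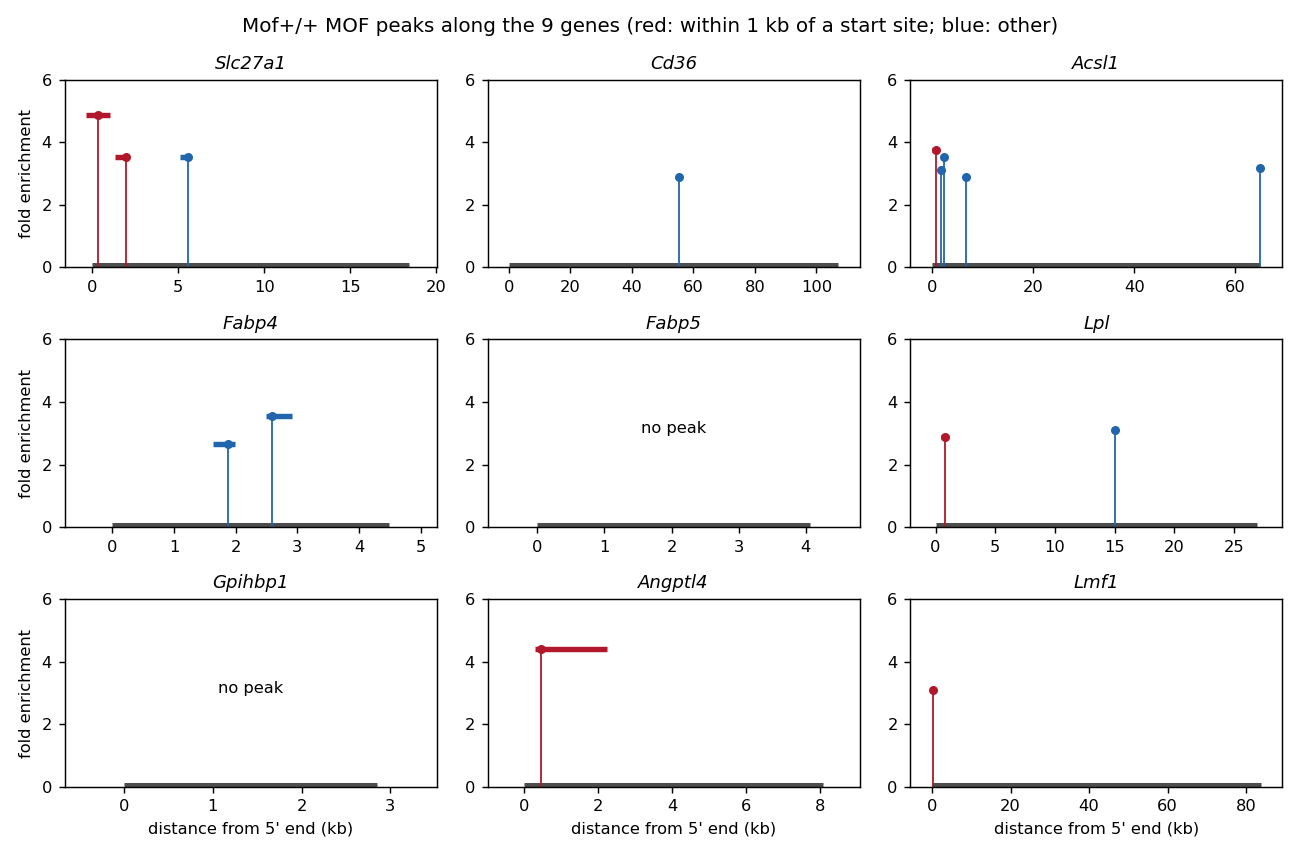
Each panel is 1 gene, drawn from its 5′ end (0) in the direction of transcription in kb (grey bar), with every Mof+/+ peak at the height of its fold enrichment, the summit as a point and the peak's extent as a horizontal bar, red within 1 kb of a start site and blue elsewhere. The red peaks of Slc27a1, Acsl1, Lpl, Angptl4 and Lmf1 sit near the 5′ end, Cd36 and Fabp4 have blue peaks alone, and Fabp5 and Gpihbp1 have none.

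Among the genes of lipolysis at the capillary, Angptl4 had the strongest peak. Angptl4 (ENSMUSG00000002289.16) lies on chr17:33773750-33781830, minus strand, and its single Mof+/+ peak, chr17:33779587-33781522, was 1936 bp wide, the widest of the 15. The summit at 33781378 fell in a coding exon, 452 bp downstream of the 5′ end of the gene, and the peak came within 21 bp of the start of an annotated shorter transcript. It held 23 fragments (14.6 to 34.5), a fold enrichment of 4.41 (2.86 to 6.53), and a q-value of 2.8e-07. Its fold enrichment was above that of 80.0% of the list, and the peak covered 17.5% of the window of the gene, the largest share of the 9 genes. Background was also the highest of the 15, at 4.44 fragments against a lowest value in the list of 3.52.

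Lpl (ENSMUSG00000015568.16, chr8:68880491-68907448, plus strand) had 2 weak peaks. The first, chr8:68880962-68881387, had its summit in an intron 826 bp downstream of the 5′ end, with 12 fragments (6.2 to 21), a fold enrichment of 2.88 and a q-value of 0.0254. Only 18.0% of the list had a lower fold enrichment, and 1050 peaks, this peak included, had exactly that value. The second Lpl peak, chr8:68895363-68895673, lay in an intron 15.0 kb from the 5′ end, held 13 fragments and a fold enrichment of 3.10, and was the narrowest of the 15 (311 bp). Repeats, as soft-masked bases of the genome, made up 44.7% of it, the highest share among the 15 peaks, against a median of 9.95% in the list.

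Lmf1 (ENSMUSG00000002279.19, chr17:25579085-25662826, plus strand) had 1 peak at its 5′ end, chr17:25579212-25579537, with the summit in an intron 356 bp downstream. It held 15 fragments (8.4 to 24.7), a fold enrichment of 3.09 (1.82 to 4.97), and a q-value of 0.00386. No other Mof+/+ peak lay within 100 kb of this gene. Its window was covered to 0.376%, the lowest share among the genes with a peak.

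Gpihbp1 (ENSMUSG00000022579.10, chr15:75596628-75599481, plus strand) had no peak in either list, and the nearest Mof+/+ peak lay 16.3 kb from the gene. A call needed 11 fragments at the lowest background in both lists, so binding that gave fewer than that was not detectable. Of the 4 genes of the lipase system, Angptl4, Lpl and Lmf1 thus had a promoter peak and Gpihbp1 had none, beside 41.0% of protein-coding genes with a promoter peak, and the Lpl promoter peak did not reach a q-value of 0.01.

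At the membrane, Slc27a1 and Cd36 differed in the number and place of their peaks. Slc27a1 (ENSMUSG00000031808.7, chr8:71568882-71587302, plus strand) had 3 peaks, and the first of them, chr8:71568543-71569932, 1390 bp wide, had the highest fold enrichment of the 15: 4.87 (3.10 to 7.32), from 21 fragments (13.0 to 32.1), with a q-value of 1.43e-07. Its summit lay in an intron 328 bp downstream of the 5′ end, and 87.6% of the list had a lower fold enrichment. The second, chr8:71570215-71570930, had its summit in a coding exon and covered the start of an annotated retained-intron transcript. The third, chr8:71573975-71574551, lay in an intron 3320 bp from the nearest start site, and both held 15 fragments and a fold enrichment of 3.54 (2.08 to 5.69). The gene lies in a region dense in peaks, with 19 Mof+/+ peaks within 100 kb, against a median of 3 (quartiles 0 and 7) over protein-coding genes.

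Cd36 (ENSMUSG00000002944.15, chr5:17781690-17888801, minus strand), the longest of the 9 genes at 107 kb, had a single peak, chr5:17833373-17833819. The summit lay in an intron, 55.4 kb from the 5′ end of the gene and 2276 bp downstream of the start of a shorter protein-coding transcript. The peak held 12 fragments (6.2 to 21), a fold enrichment of 2.88 (1.59 to 4.86), and a q-value of 0.0254, and it contained 4.47 CpG sites per kb, the lowest of the 15. It covered 0.406% of the window, against 12.5% at Slc27a1.

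Acsl1 (ENSMUSG00000018796.13, chr8:46471037-46536051, plus strand) had 5 peaks, the most of the 9 genes. Among protein-coding genes with a peak, 39.2% had 2 or more, 18.2% had 3 or more and 6.49% had 5 or more. The promoter peak of Acsl1, chr8:46470888-46472132, was 1245 bp wide, with the summit in an intron 668 bp downstream of the 5′ end, 16 fragments (9.15 to 26), a fold enrichment of 3.76 (2.24 to 5.97), and a q-value of 0.000212. A further 3 peaks followed within 7084 bp of the 5′ end: chr8:46472501-46472904 with 13 fragments, chr8:46473217-46473706 with 15, and chr8:46477660-46478121 with 12. These 3 intronic peaks lay nearer to the start of Gm45244, a provisional gene model inside Acsl1, than to any start of Acsl1, and the middle peak of the 3 covered that start. The last peak, chr8:46535609-46536554, had its summit in a UTR at the 3′ end of the gene, 65.0 kb from the 5′ end, with 14 fragments (7.65 to 23.5) and a fold enrichment of 3.19. When peaks within 1000 bp of each other were joined, the 15 peaks of all genes became 11.

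Fabp4 (ENSMUSG00000062515.3, chr3:10204088-10208576, minus strand) had 2 peaks inside its body and none within 1 kb of a start site. The peak chr3:10206590-10206944 had its summit in an intron of the coding transcript with 11 fragments (5.49 to 19.7), a fold enrichment of 2.65 and a q-value of 0.0701, the weakest of the 15 on each measure. The peak chr3:10205663-10206086 had its summit in a coding exon, 2583 bp downstream of the 5′ end, with 15 fragments (8.4 to 24.7) and a fold enrichment of 3.54. Together they covered 10.4% of the window of this short gene. Fabp5 (ENSMUSG00000027533.10, chr3:10012548-10016607, plus strand), on the same chromosome, had no peak, and the nearest Mof+/+ peak lay 37.7 kb from the gene.

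**Figure D3:**
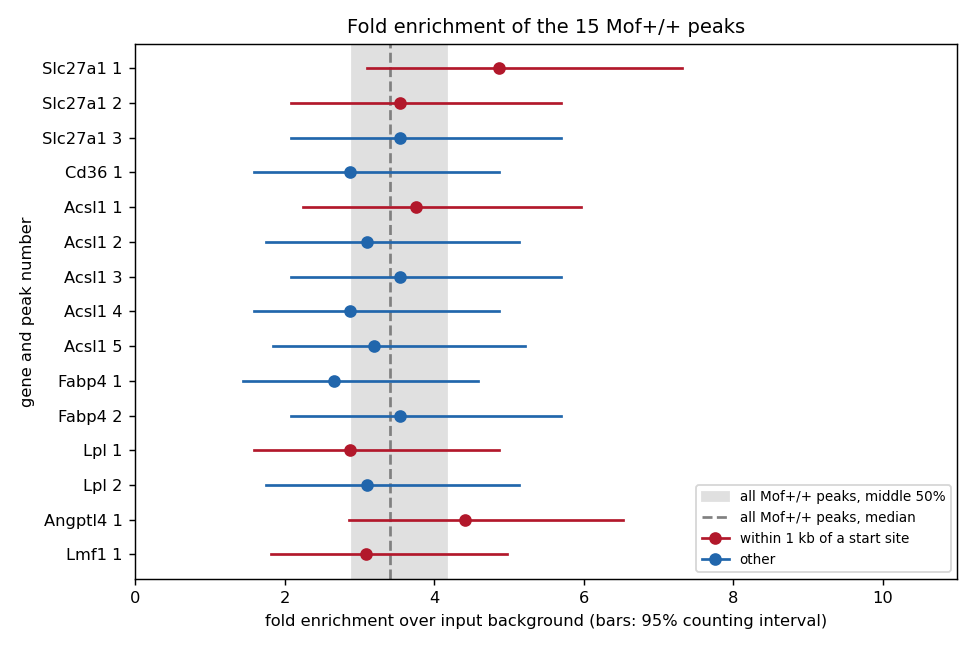
Points give the fold enrichment over input background of the 15 Mof+/+ peaks, with 95% counting intervals, in red within 1 kb of a start site and in blue elsewhere, beside the median (dashed) and middle 50% (grey) of all Mof+/+ peaks. Slc27a1 peak 1 at 4.87 and Angptl4 peak 1 at 4.41 lie to the right of the grey band, Fabp4 peak 1, Lpl peak 1, Cd36 peak 1 and Acsl1 peak 4 lie at or left of its edge, and all intervals overlap.

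The caller gave 14 of the 15 peaks a q-value of at most 0.05, 11 of at most 0.01 and 7 of at most 0.001. The 7 lay at Slc27a1 (3), Acsl1 (2), Angptl4 (1) and Fabp4 (1), while the peaks of Cd36, Lpl and Lmf1 were weaker. Background at 12 of the 15 summits was the lowest value of the list, so fold enrichment there moved in steps of 1 fragment. The 4 peaks with 15 fragments at that background had the value 3.54, shared by 985 peaks of the list, these 4 included.

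The promoter peaks of all 5 genes had their summits inside the gene. At Slc27a1, Lmf1, Angptl4, Acsl1 and Lpl the summit of the peak nearest the 5′ end lay 328, 356, 452, 668 and 826 bp downstream of that end. Over the 8335 protein-coding genes with a peak within 1 kb of the 5′ end, the median was 165 bp downstream (quartiles -109.5 and 362), with 70.3% of summits downstream. Taking all 15 peaks, 11 summits were in introns, 3 in coding exons and 1 in a UTR.

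The 6 peaks within 1 kb of a start site and the other 9 are given side by side. The 6 promoter peaks had a median width of 980.5 bp (326 to 1936), a median fold enrichment of 3.65 (2.88 to 4.87) and a median of 15.5 fragments, and the other 9 had 447 bp (311 to 946), 3.10 (2.65 to 3.54) and 13 fragments. Widths overlapped, and the promoter peaks of Lmf1 (326 bp) and Lpl (426 bp) were narrower than the median of the others. CpG density was 25.3 to 85.1 sites per kb at the promoter peaks and 4.47 to 40.1 at the others, with a list median of 24.5 per kb. The promoter peaks of Acsl1 (85.1), Lmf1 (64.4) and Lpl (61.0) were the richest in CpG, and the exonic Fabp4 peak reached 40.1. These peaks were not independent samples, and the difference between both kinds was not tested.

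**Figure D4:**
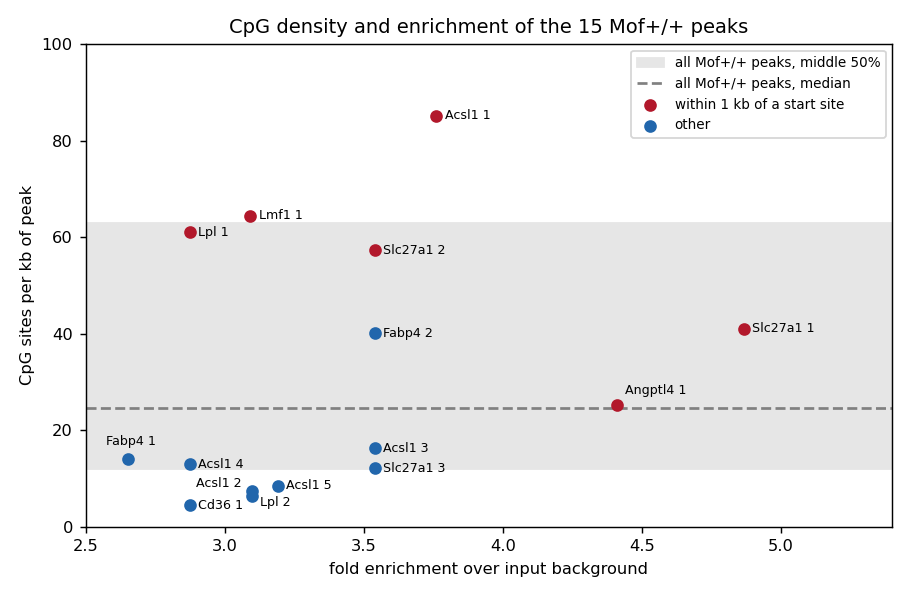
The 15 Mof+/+ peaks are plotted by fold enrichment over input background (horizontal) and CpG sites per kb (vertical), red within 1 kb of a start site and blue elsewhere, with the median (dashed) and middle 50% (grey) of all Mof+/+ peaks. All 6 red points and Fabp4 peak 2 lie above the median of 24.5 CpG sites per kb, and the other 8 blue points lie below it.

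The genomic sequence at 5 summits shows the range of CpG content, with CpG sites in capitals and 101 bases centred on each summit, given on the strand of the gene. They are the strongest peak (Slc27a1), the peak richest in CpG (Acsl1), the promoter peak of Lpl, the exonic peak of Fabp4 and the sole peak of Cd36.
Slc27a1 peak 1 summit, GRCm38 chr8:71569160-71569260, plus strand: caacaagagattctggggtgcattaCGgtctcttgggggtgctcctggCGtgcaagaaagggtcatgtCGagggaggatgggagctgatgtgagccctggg
Acsl1 peak 1 summit, GRCm38 chr8:46471655-46471755, plus strand: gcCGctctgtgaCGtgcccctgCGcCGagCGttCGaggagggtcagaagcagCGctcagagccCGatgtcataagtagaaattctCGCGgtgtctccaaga
Lpl peak 1 summit, GRCm38 chr8:68881267-68881367, plus strand: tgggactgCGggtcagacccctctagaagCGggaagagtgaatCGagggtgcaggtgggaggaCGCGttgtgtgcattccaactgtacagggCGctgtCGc
Fabp4 peak 2 summit, GRCm38 chr3:10205943-10206043, minus strand: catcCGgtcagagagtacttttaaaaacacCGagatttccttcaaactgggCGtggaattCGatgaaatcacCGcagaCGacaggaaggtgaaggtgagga
Cd36 peak 1 summit, GRCm38 chr5:17833370-17833470, minus strand: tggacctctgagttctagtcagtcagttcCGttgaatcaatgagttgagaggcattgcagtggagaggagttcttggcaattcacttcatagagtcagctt

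In these windows the Acsl1 summit held 10 CpG sites, Lpl 7, Fabp4 6, Slc27a1 3 and Cd36 1. The strongest peak was thus not the richest in CpG at its summit. In 300 bases around the summit, the AGGTCA element occurred at the promoter peaks of Lpl and Lmf1, 2 of 15 summits, against 16.3% of the list. The direct repeat of that element, in 0.0658% of summit windows of the list, occurred at none of the 15, and neither did TTGCGCAA (0.137%). Sites of CviKI-1, the enzyme that cut the chromatin between G and C where a purine stands before them and a pyrimidine after, had a density of 5.63 to 38.1 per kb across the 15 peaks, lowest at the weakest peak of Fabp4 and highest at the strongest of Slc27a1, with a list median of 21.2, and 6 of the 15 peaks lay above it. The part of these cutting sites in the fold enrichment was not tested.

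No Mof+/- peak fell in the window of any of the 9 genes. The nearest lay 0.146 Mb from Gpihbp1, 0.212 Mb from Lmf1, 0.245 Mb from Angptl4 and 0.51 Mb from Cd36, and between 9.86 and 20 Mb from the other 5 genes. The Mof+/- list also had a lower background, 2.26 fragments at its lowest against 3.52 in Mof+/+, a ratio of 0.642. The median backgrounds were 2.26 and 3.53, so the lowest value is a floor shared by many peaks and not a count of input at these genes. When the fragments at each Mof+/+ summit were multiplied by that ratio, as if enrichment were the same in both genotypes, they fell to between 7.07 and 14.8. The weakest Mof+/- peak in the list corresponded to 11 fragments at that background, or 12 at the higher background of Angptl4 and Lmf1. Only the first Slc27a1 peak, with 13.5 scaled fragments, and the Angptl4 peak, with 14.8, reached the number needed, 2 of 15 peaks against 30.1% of the whole Mof+/+ list. The Acsl1 promoter peak came next with 10.3 of the 11 needed. The counting interval of the scaled number included the number needed at all 15 summits. It was 8.35 to 20.6 at the first Slc27a1 peak, 9.36 to 22.2 at Angptl4, 5.87 to 16.7 at the Acsl1 promoter, 5.39 to 15.9 at Lmf1 and 3.53 to 12.6 at the weakest Fabp4 peak. With unchanged enrichment a Mof+/- call could therefore have been made or missed at each of the 15, and these lists measure neither a decrease of MOF binding at the 9 genes nor the lack of one. The part of depth in the absence of Mof+/- peaks was not tested.

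**Figure D5:**
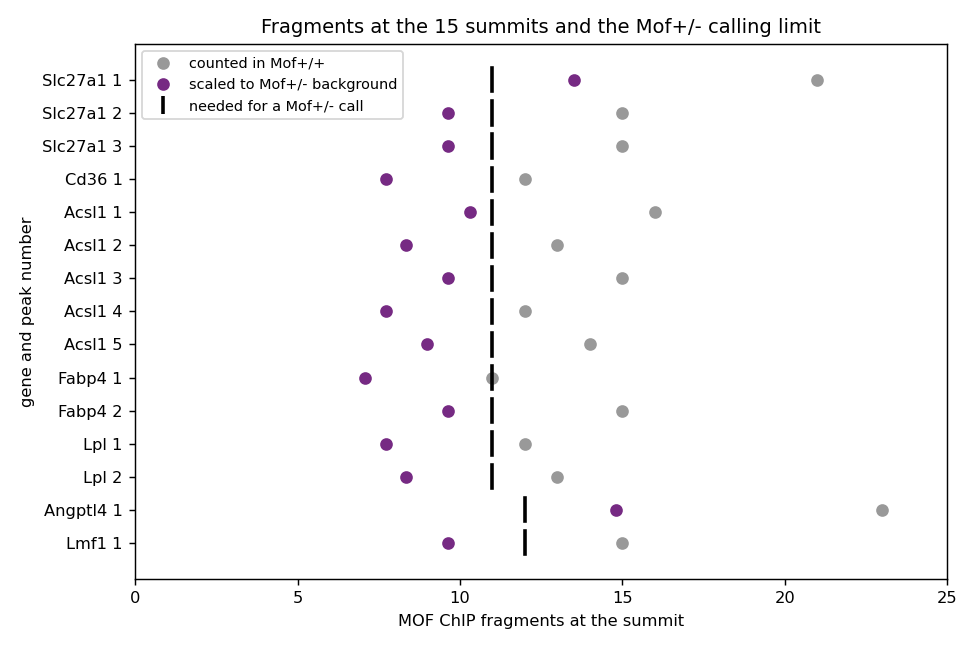
For each of the 15 Mof+/+ summits the horizontal axis gives the number of MOF ChIP fragments counted in Mof+/+ (grey). It also gives the number after scaling to the Mof+/- background (purple) and the number needed for a call in the Mof+/- list (black tick). The purple point lies to the right of the tick at Slc27a1 peak 1 and Angptl4 peak 1 alone.

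The steps of uptake and binding involve further genes, of which 35 were listed. Of these 35 genes, 12 had a Mof+/+ peak (34.3%, 20.8 to 50.8%) and 9 a promoter peak (25.7%, 14.2 to 42.1%), shares on the other side of the backgrounds of 44.5% and 41.0% from those of the 9 genes, with intervals that include them. None of the 35 had a Mof+/- peak. The other 5 members of the Slc27a family, Slc27a2 to Slc27a6, had no peak, whereas Slc27a1 had 3. Of 9 other fatty acid binding protein genes only Dbi, which encodes the acyl-CoA binding protein and belongs to another fold family than the Fabp genes, had peaks, the stronger at chr1:120120386-120121507 with 26 fragments (17.0 to 38.1) and a fold enrichment of 5.91. The acyl-CoA synthetases had a promoter peak in 3 of 5 genes, highest at Acsl5 with a fold enrichment of 4.20, above the 3.76 of the Acsl1 promoter by less than the counting error. Among 10 genes of the lipase system 4 had a peak, highest at Sel1l, a partner in lipase maturation, with a fold enrichment of 4.42. Among 6 genes of membrane uptake 4 had a peak, highest at Got2, known at the plasma membrane as a fatty acid binding protein, with 3.76. The difference between the 9 genes and their relatives was not tested.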

How the data were processed

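MOF ChIP, H3 ChIP and input libraries were described by the labels, and the analysis used the authors' MOF peak list of each genotype. The methods of the study name snakePipes for mapping to GRCm38 and MACS2 (2.1.1.20160309.3), with input as control, for peak calling. The deposited fold enrichment is a ratio computed by the authors' caller at the summit. The same caller gave the deposited −log10 p-value and, adjusted over the genome, the −log10 q-value, and the deposited score in the fifth column was not used. Library depth is not given in these lists. Start sites were taken from GENCODE M21, and Python 3.11.15, scipy 1.17.1, pysam 0.24.0 and samtools 1.23.1 were used. Fragments and background were solved from fold enrichment and p-value, assuming the caller's Poisson model with a pseudocount of 1, and gave whole fragments (within 0.002 of the −log10 p-value) for 99.99% of Mof+/+ peaks. The solver was tested on simulated data. The 9 genes and all other lists were chosen with earlier results of these data known. All 9 genes were named, as were the highest gene of each other list, genes with a Mof+/- peak and nearer neighbouring genes. Lep and Retn were named after their values were seen. Groups came from the labels, and replicates could not be compared.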

Additional observations from a re-analysis of the deposited data

How the results depend on the processing

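Of 57 alternative settings tried over 9 results, 44 stayed within 1.5 times the reported count or, for shares, within its 95% interval. With q-values limited to 0.001, the genes with a Mof+/+ peak fell from 7 to 4 (Slc27a1, Acsl1, Fabp4 and Angptl4), their peaks from 15 to 7 and the genes with a promoter peak from 5 to 3, and the weakest Mof+/- p-value applied to both lists left 9 peaks. No setting gave a Mof+/- peak at these genes. None could, since the nearest Mof+/- peak lay 0.146 Mb away and the widest window reached 10 kb. These settings are counted among the 44 all the same. The share of protein-coding genes with a Mof+/+ peak, 44.5%, became 41.4% with the gene body only, 42.8% within 3 kb of a start site only, 48.3% within 10 kb, 40.6% and 34.2% with q-values limited to 0.01 and 0.001, and 38.9% at the weakest Mof+/- p-value. Over the 7 genes with a peak, a median of 53.1% of the list was weaker than the gene's strongest peak by fold enrichment, and 48.7% by p-value. Of the 10141 promoter peaks alone, a median of 37.8% were weaker than the gene's strongest peak, at a promoter or not. The median CpG number of 300 bases was 13 at the 7 promoters and 6 at the 15 summits. Fragments could not be solved with a pseudocount of 0, so that setting gave no value. No paired analysis was possible because the columns name no replicate and there is 1 list a genotype, and no replicate could be left out. Absence of a peak is limited by depth: fewer than 11 fragments were not callable in either list.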
